A study of Mus musculus with 8 samples.

Results

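Among the sites of open chromatin found in every sample of this study, 770 ranked lower after delivery of either form of Ezh2 than in GFP controls. They were chosen by a rule on the measured peaks themselves. Open chromatin was mapped by ATAC-seq, in which a transposase cuts accessible DNA and inserts sequencing adapters, and 1 list of called peaks per sample was examined. Merging overlapping peaks of all 8 lists (at least 1 bp in common) on the 19 autosomes gave 186387 regions, and 68278 of these held a peak in every list. In each list the highest fold over background in a region was given as a percentile among all peaks of that list. A region was kept when every GFP value exceeded every Ezh2 and Ezh2-Y726D value and the GFP mean exceeded each other group mean by at least 15 percentile points. The reverse rule, with GFP below both groups, gave a mirrored set of 1614 regions that serves for comparison.

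The samples were retinal ganglion cells (RGCs), the neurons whose axons form the optic nerve, from adult C57BL/6J mice of both sexes. Their eyes had received an intravitreal dose of AAV2-GFP, of AAV-Ezh2 (also written AAV2-Ezh2) or of AAV2-Ezh2-Y726D. The optic nerve was crushed 2 weeks later in all groups, and live CD90.2-positive cells were sorted 3 days after the crush, 50000 per library. There were 3 GFP, 3 Ezh2 and 2 Ezh2-Y726D samples, and the labels do not say whether mice were pooled or separate, so p-values measure only the spread between these samples, which may be technical. CD90.2 is also carried by T cells, and AAV2 given this way can enter retinal cells other than RGCs.

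Ezh2 is the catalytic subunit of Polycomb repressive complex 2 (PRC2), which places methyl groups on a lysine in the tail of histone H3. That mark is typical of silenced developmental genes and of compacted chromatin. Ezh2-Y726D carries a substitution that abolishes methyltransferase activity, so its comparison with Ezh2 bears on which effects need the enzyme. The paper proposes that this form might also inhibit the cells' own Ezh2. A difference between the 2 forms therefore need not mark an effect of the enzyme activity. ATAC-seq peaks mark promoters and distal elements such as enhancers, and a weaker peak means fewer transposase cuts over background, either in each cell or in a smaller share of the cells. In bulk samples these cannot be told apart.

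Promoter sequence stood under 29 of the 770 regions, which overlapped 32 RefSeq promoter windows. Shown are the 250 bases before the start site, read 5′ to 3′ on the gene's strand in RefSeq GRCm38.p6, for the 4 protein-coding genes with the widest gap between GFP and the other groups and for the 2 listed marker genes with such a window. This choice was made after the values had been seen. Capitals mark matches on either strand to 19 short motifs. For basic leucine zipper factors they were TGANTCA (AP-1) and TGACGTCA (CRE), and for homeodomain factors TAATCC (CRX/OTX), TAATTA (other homeodomain proteins) and ATGCAAAT (POU). E-box letters were CAGATG as one form and CAGCTG as the other. GGGCGG stood for SP/KLF factors, CCGGAAG for ETS factors, GAGGAAGT for PU.1, TGTGGTT for RUNX, CATTGTT for SOX, GCGCNTGCG for NRF1, AAGATGGCG for YY1 and AGGGGGC for the core of the CTCF site. The remaining motifs were CCAAT and TATAAA (both known as promoter boxes), GAANNTTC (heat shock element) and TATTTATAG (MEF2).
Impg2, a matrix proteoglycan around photoreceptors, chr16:56204063-56204312, + strand: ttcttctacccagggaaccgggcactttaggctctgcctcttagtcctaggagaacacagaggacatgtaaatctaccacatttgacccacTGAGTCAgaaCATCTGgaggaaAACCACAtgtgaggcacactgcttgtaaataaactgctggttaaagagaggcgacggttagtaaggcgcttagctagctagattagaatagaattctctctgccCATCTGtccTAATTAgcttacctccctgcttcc
Tafa2, a secreted neuropeptide-like protein, chr10:123263826-123264075, + strand: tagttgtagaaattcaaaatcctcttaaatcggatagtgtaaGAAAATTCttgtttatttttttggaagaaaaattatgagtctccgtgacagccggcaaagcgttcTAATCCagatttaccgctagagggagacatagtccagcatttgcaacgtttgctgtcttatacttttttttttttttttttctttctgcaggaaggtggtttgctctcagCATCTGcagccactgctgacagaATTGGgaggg
Mtmr2, a phosphoinositide phosphatase, chr9:13765704-13765953, + strand, at a start site inside the gene: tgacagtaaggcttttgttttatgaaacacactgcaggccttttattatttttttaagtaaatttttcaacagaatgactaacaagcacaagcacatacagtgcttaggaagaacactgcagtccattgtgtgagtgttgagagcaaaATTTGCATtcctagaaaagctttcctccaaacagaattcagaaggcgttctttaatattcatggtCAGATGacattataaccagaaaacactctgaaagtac
Ttll8, a tubulin glycylase, chr15:88954419-88954668, - strand: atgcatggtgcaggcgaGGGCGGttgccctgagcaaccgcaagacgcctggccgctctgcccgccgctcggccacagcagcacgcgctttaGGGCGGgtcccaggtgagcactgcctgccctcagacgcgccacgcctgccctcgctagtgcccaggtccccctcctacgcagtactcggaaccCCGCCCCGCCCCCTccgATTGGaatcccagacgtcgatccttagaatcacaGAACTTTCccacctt
Cd5, a T cell surface receptor, chr19:10738975-10739224, - strand: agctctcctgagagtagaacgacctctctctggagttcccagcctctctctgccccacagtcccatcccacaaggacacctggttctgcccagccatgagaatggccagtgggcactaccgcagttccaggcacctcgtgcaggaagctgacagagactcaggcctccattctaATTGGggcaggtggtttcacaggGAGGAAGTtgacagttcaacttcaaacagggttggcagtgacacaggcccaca
Aipl1, a photoreceptor chaperone, chr11:72037510-72037759, - strand: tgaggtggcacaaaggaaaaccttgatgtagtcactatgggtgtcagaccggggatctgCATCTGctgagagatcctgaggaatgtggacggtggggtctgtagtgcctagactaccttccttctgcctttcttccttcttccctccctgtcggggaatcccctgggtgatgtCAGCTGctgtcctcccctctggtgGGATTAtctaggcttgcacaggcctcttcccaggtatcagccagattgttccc

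In 4 of these genes the median GFP summit lay 47 to 92 bases before the start site, in Aipl1, Impg2, Mtmr2 and Cd5. It lay 165 bases before it in Ttll8 and 53 bases after it in Tafa2. The Impg2 window held an AP-1 match at -159 and a homeodomain match at -24, counted from the start site. The Aipl1 window, at a start site inside the gene like that of Mtmr2, held a CRX/OTX match at -53. That of Cd5 held a PU.1 match at -53. In Ttll8 an SP/KLF match and the CTCF core overlapped.

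Over all 32 windows the median was 53.6% GC and 4.5 CpG dinucleotides per 250 bases. The 15237 windows under any shared region had 60.8% GC and 16 CpG, and the 30 windows under the mirrored set had 50.4% and 3.5. The SP/KLF letters, typical of CpG-rich housekeeping promoters, occurred in 28.1% of the 32 windows and in 20.0% under the mirrored set. The share was 57.8% under all shared regions and 33.0% over all 31396 windows. The CRX/OTX letters, bound by photoreceptor and bipolar cell factors, occurred in 4 of 32 (12.5%), in 10.0% under the mirrored set, in 5.01% under all shared regions and in 6.26% of all windows. The CAGATG E-box occurred in 9 of 32 (28.1%), 16.7%, 9.99% and 14.5% in the same order. No NRF1 match was found in the 32 windows or in the 30 under the mirrored set, against 10.1% under all shared regions. The few windows limit these shares, and the sequence of the other members was not used here.

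The 770 regions were of ordinary strength in GFP and of low strength in both other groups. Their median percentile was 73.4, 72.3 and 72.6 in the GFP replicates. It was 44.4, 47.2 and 44.1 with Ezh2 and 37.0 and 42.8 with Ezh2-Y726D. Over all shared regions the sample medians ran from 66.7 to 71.8, so the regions stood slightly above a typical shared region in GFP and well below it in both other groups. GFP exceeded Ezh2 by 15.02 to 64.8 points (median 24.4) and Ezh2-Y726D by 15.1 to 71.7 points (median 27.9). The same medians over all shared regions were -0.53 and -0.28. As a ratio of mean folds, GFP over Ezh2 had a median of 1.42 (quartiles 1.32 and 1.57) and GFP over Ezh2-Y726D a median of 1.40 (1.26 and 1.64). These values follow from the rule and carry no test.

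**Figure D1:**
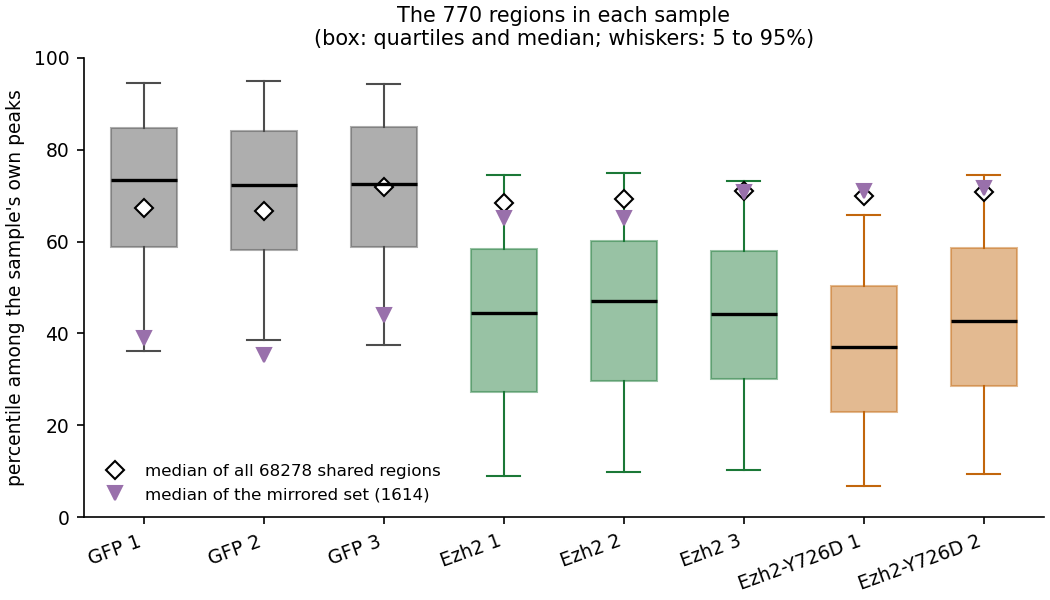
Percentile of the 770 regions among each sample's own peaks, as a box of quartiles and median with whiskers from 5 to 95%. Open diamonds are medians of all 68278 shared regions (66.7 to 71.8) and triangles are medians of the mirrored set. Boxes of the 3 GFP samples centre on 72.3 to 73.4, and those of the other 5 samples on 37.0 to 47.2.

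Every GFP value lay above all 5 others in 2465 of 68278 shared regions (3.61%), and every GFP value lay below them in 3254. The 15-point requirement left the 770, or 1.13% of shared regions, against 2.36% for the mirrored set. With limma on normal scores, which are the within-sample ranks placed on a standard normal scale, 342 of the 770 passed for Ezh2 below GFP (background 2.86% of shared regions) and 420 for Ezh2-Y726D below GFP (4.7%), with 242 passing both. The rule used both contrasts, which share the GFP samples, so nothing is read from those counts. Within a group the samples spanned a median of 9.13 points in GFP, 16.7 with Ezh2 and 11.2 with Ezh2-Y726D. Over all shared regions these medians were 10.6, 9.91 and 5.37. The range of 2 Ezh2-Y726D samples cannot be compared directly with ranges of 3.

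**Figure D2:**
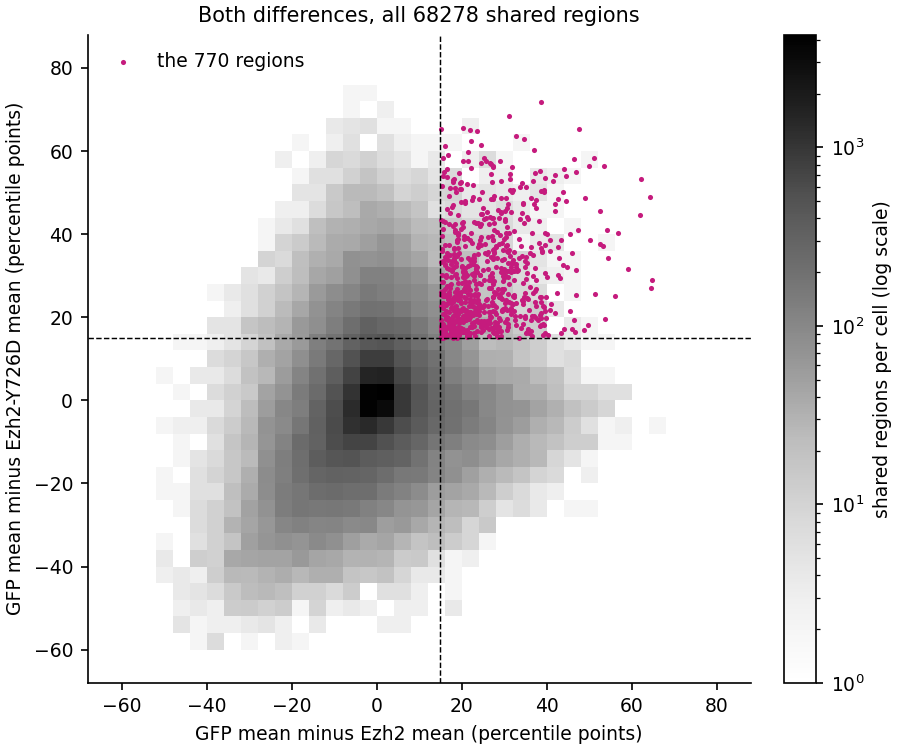
GFP mean minus Ezh2 mean (x axis) against GFP mean minus Ezh2-Y726D mean (y axis), in percentile points, with the number of shared regions per cell in grey on a log scale. Coloured points are the 770 regions and dashed lines mark 15 points. Grey cells beyond both lines also count regions in which single samples overlapped. Both axes subtract from the same GFP samples.

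Read numbers were unknown, but folds took regular steps that give the worth of 1 read at the background level. The step was 0.211 to 0.295 fold units across samples, largest in Ezh2-Y726D replicate 1. The median fold of the regions came to 25 to 30.3 such steps in GFP, 19 to 20 with Ezh2 and 15 and 19 with Ezh2-Y726D. At these levels 1 step was worth 2.11 to 2.39 percentile points in the GFP samples and 4.29 to 5.68 in the others. A single sample therefore placed a region no more finely than several points.

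Because the rule picks extreme regions from the same values, it was also applied to 6 samples and read in the 2 it had not used. Leaving out 1 GFP and 1 Ezh2 sample in all 9 pairs, 997 to 1289 regions were chosen. The median gap between GFP and Ezh2 was 23.3 to 24.4 points in the samples used and 11.2 to 17.4 points in the pair not used, where GFP was the higher in 71.9 to 86.2% of regions. Over all shared regions GFP was the higher in 40.3 to 56.5%. For the 6 pairs of GFP and Ezh2-Y726D samples the gap was 25.8 to 28.4 points in the samples used and 12.5 to 23.4 points in the pair not used, with GFP higher in 71.0 to 87.3% against 44.4 to 55.2%. In each such pair GFP was the higher for most of the regions chosen without that pair, with a smaller gap. These choices of pairs were made after the data had been seen, and the pairs share samples. Each sample left out of a pair served in the choice for other pairs, and the regions chosen differed from the full set. These values therefore describe how far the gap depends on the samples used, and are no independent test of the full set. The gap in the pair not used was smallest when GFP replicate 2 was set against Ezh2 replicate 3.

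Of the 10 regions with the widest gaps, 6 lay in gene bodies, 2 at gene ends and 2 between genes. The first, chr12:75774126-75774714 inside the uncharacterised gene Gm40447, had folds of 11.6, 11.7 and 10.1 in the GFP replicates, 5.13, 5.77 and 2.83 with Ezh2 and 3.84 and 5.34 with Ezh2-Y726D. The GFP values were close together, and Ezh2 replicate 3 was the lowest of all samples. Next came a region in Cnga1, which encodes a subunit of the channel that cyclic GMP holds open in rods (chr5:72608069-72608897). Its folds were 9.43, 10.7 and 10.9 in GFP, 4.40, 4.85 and 2.62 with Ezh2 and 3.54 and 6.06 with Ezh2-Y726D. Here too Ezh2 replicate 3 was lowest, and the Ezh2-Y726D samples differed more from each other than the GFP samples did.

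Hspa14, a ribosome-associated Hsp70 relative, had a region 807 bp from a gene end (chr2:3489661-3490692), with folds of 8.20, 7.60 and 8.54 in GFP, 4.15, 4.39 and 3.49 with Ezh2 and 4.43 and 3.40 with Ezh2-Y726D. Of the first 10 this region had the narrowest spread among the 5 samples outside GFP. Pde8b, a cyclic AMP phosphodiesterase, had a wide spread at chr13:95237308-95237933. The GFP folds were 10.7, 11.2 and 11.4, whereas the Ezh2 folds were 3.18, 6.46 and 5.23 and those of Ezh2-Y726D 3.25 and 5.09. Its Ezh2 percentiles spread from 10.0 to 72.8.

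A region in Timm44, a subunit of the mitochondrial import motor (chr8:4266735-4267964), had mean folds of 9.31 in GFP, 3.71 with Ezh2 and 4.61 with Ezh2-Y726D. Intergenic regions 9420 bp from Ermard (chr17:15099465-15100333) and 5358 bp from the linker histone gene H1f4 (chr13:23627916-23628411) had GFP means of 9.05 and 7.55 against 3.93 to 4.29 in the other groups. Zcchc7, an RNA surveillance factor (chr4:44813742-44814241), 4931440J10Rik (chr14:62827094-62827887) and the aminopeptidase gene Aopep, where the region also covers Gm16907 (chr13:63287997-63289164), completed the first 10. Their GFP folds were 6.65 to 10.0 and all their other folds 3.01 to 5.62. By construction no sample of these 10 regions crossed between GFP and the rest.

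**Figure D3:**
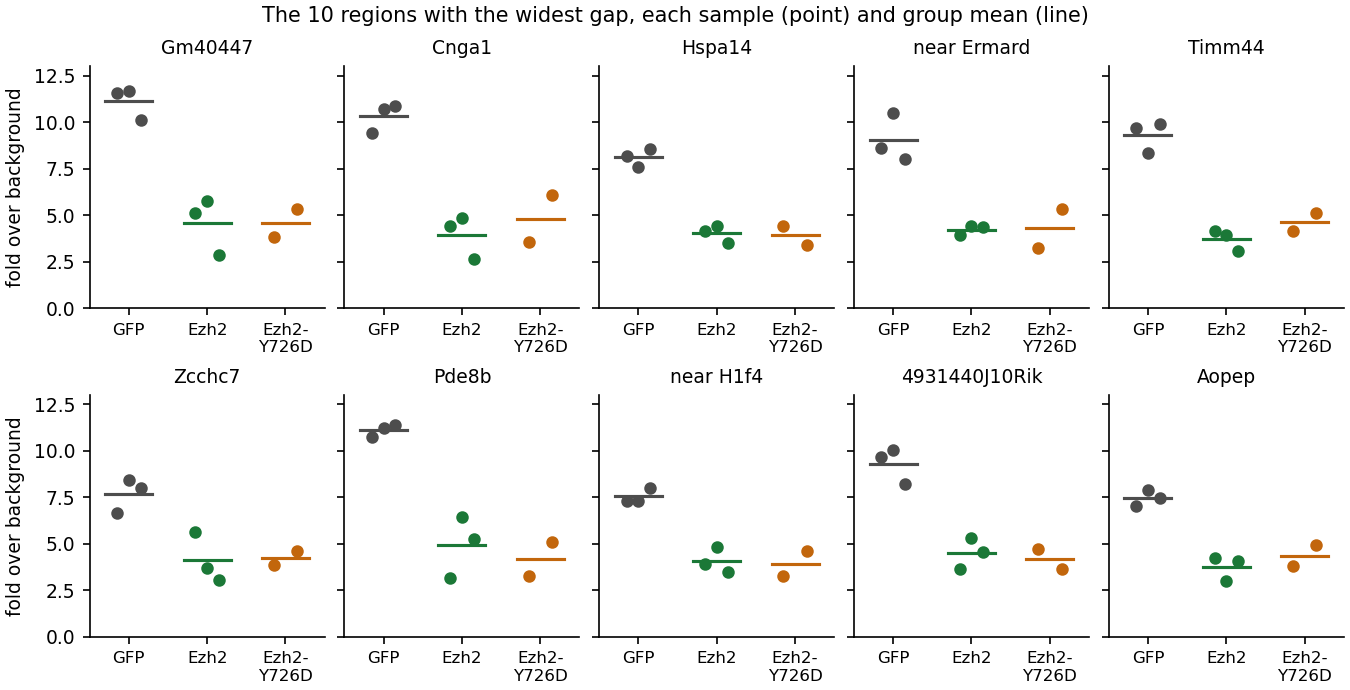
Fold over background in the 10 regions with the widest gap, named by the gene they overlap or lie near. Points are samples and lines are group means. GFP means run from 7.46 to 11.1, and the means of the other groups from 3.71 to 4.96.

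Further regions inside protein-coding genes had gaps nearly as wide. Pitpnm3, a phosphatidylinositol transfer protein gene expressed in photoreceptors (chr11:72117767-72118490), had mean folds of 7.48 in GFP, 4.11 with Ezh2 and 3.96 with Ezh2-Y726D. Klhl36 (chr8:119870210-119871065), Apbb2, an adaptor of the amyloid precursor protein (chr5:66518093-66518845), and Sh3yl1 (chr12:30925753-30926315) had GFP means of 8.38, 7.47 and 10.4. Their Ezh2 means were 4.64, 4.27 and 4.34, and their Ezh2-Y726D means 4.49, 4.30 and 5.27.

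At ends of protein-coding genes the widest gaps after Hspa14 were at Gm32234, Slc5a5, Impg2, Ppp1r13l and Ccdc12. The region 506 bp from Gm32234, which lies inside the Mediator kinase gene Cdk19 and not at an end of it, had percentiles of 72.6, 87.0 and 86.2 in GFP, 49.2, 55.5 and 30.2 with Ezh2 and 22.9 and 20.6 with Ezh2-Y726D at chr10:40467133-40468121. Impg2 had folds of 8.47, 11.4 and 11.0 in GFP, 4.88, 6.00 and 5.01 with Ezh2 and 5.31 and 4.37 with Ezh2-Y726D at chr16:56203911-56204803, which covers the promoter printed above. The iodide transporter gene Slc5a5 (chr8:70891357-70891916) and Ppp1r13l, an inhibitor of p53 (chr7:19377941-19378413), had GFP means of 6.87 and 5.05 against 4.42 and 3.48 with Ezh2 and 3.87 and 3.12 with Ezh2-Y726D. The region 372 bp from Ccdc12, a spliceosome-associated protein gene (chr9:110711965-110712606), had means of 6.23, 4.21 and 4.34 in the same order.

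At the threshold, the 3 regions just inside were in Phc2, Tcp11 and Mdga2, with smaller differences of 15.029, 15.028 and 15.019 points. In Mdga2, a neuronal adhesion molecule gene (chr12:66556221-66557529), percentiles were 73.8, 66.0 and 71.1 in GFP, 49.2, 60.5 and 56.1 with Ezh2 and 45.3 and 49.7 with Ezh2-Y726D. The 3 separated regions just outside were in 2900024J01Rik, Cacna2d3 and Mvb12b, with 14.990, 14.989 and 14.988 points. In Mvb12b (chr2:33753336-33754748) percentiles were 73.7, 75.9 and 70.8, 58.3, 56.6 and 60.5, and 45.2 and 40.4 in the same order. Regions on either side of the threshold thus differed little.

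Members lay mostly inside genes and away from gene ends. Of the 770, 490 (63.6%) were in gene bodies, 184 (23.9%) between genes and 96 (12.5%, exact 95% interval 10.2 to 15.01% for counting error) within 1 kb of either end of a RefSeq gene. All shared regions were split 48.0%, 25.6% and 26.4%, and the mirrored set 58.2%, 34.4% and 7.37%. The median distance to the nearest gene end was 10917.5 bp, against 17340 bp in the mirrored set and 7599 bp over all. Strong peaks sit at gene ends more often, so the shares were also read by strength. Between mean percentiles of 50 and 60, 13.2% of 189 members, 8.08% of 396 mirrored and 16.6% of 9108 shared regions lay at gene ends, and between 70 and 80 the shares were 9.71%, 6.90% and 22.8%. Members were below all shared regions in each strength bin with at least 20 members. Merged members were also narrower, with a median of 757 bp against 941 bp over all and 802.5 bp in the mirrored set.

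**Figure D4:**
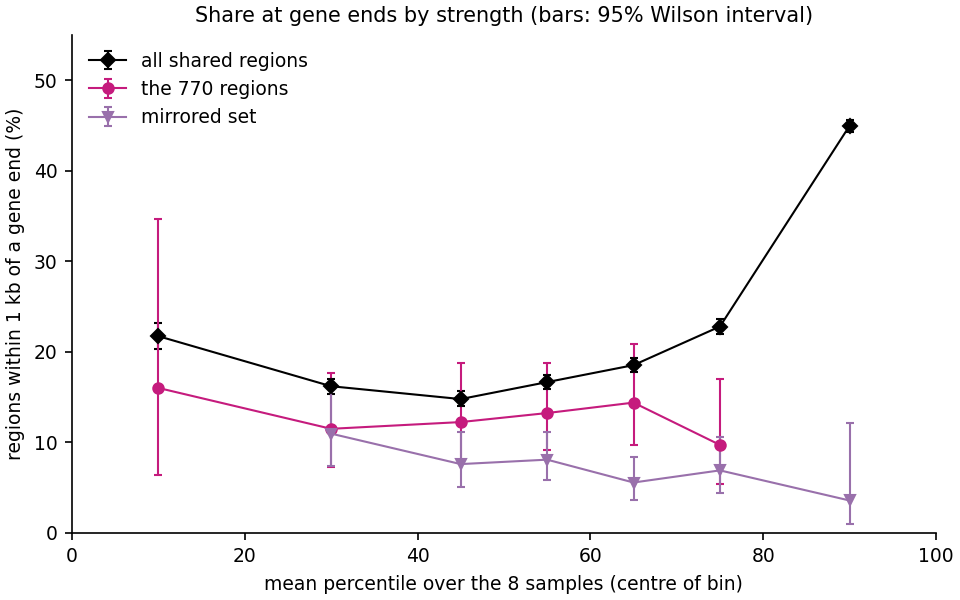
Share of regions within 1 kb of a gene end (y axis, percent) by mean percentile over the 8 samples (x axis), with 95% Wilson intervals for counting error, for bins of at least 20 regions. The share of all shared regions reaches 44.9% in the strongest bin, while the 770 regions lie between 9.71 and 16.0% and the mirrored set between 3.57 and 11.0%.

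Peak summits lay at nearly the same place in all groups. The median shift of the summit from GFP to Ezh2 was 15 bp and from GFP to Ezh2-Y726D 24 bp, against 30 bp as the median range among the 3 GFP samples. Peaks were shorter in both other groups than in GFP, with median widths of 574 to 632 bp in GFP, 423 to 459 bp in Ezh2 and 373 and 444 bp in Ezh2-Y726D. Over all shared regions the sample medians were 633 to 737 bp and did not order by group. Peak width comes from the same calls as the fold and is no separate line of evidence.

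Members were spread over all 19 autosomes, from 0.787% of shared regions on chromosome 18 to 1.56% on chromosome 12. Of the 770, 89 lay within 50 kb of another member. Among shared regions that are no members, 3889 lay that close to a member and 63619 did not. That is a smaller share than among the 770. The median differences of the 3889 were -0.87 points for GFP minus Ezh2 and -0.11 for GFP minus Ezh2-Y726D. GFP was above all other samples in 2.78% of them, against 2.49% of the 63619 regions farther away. The closest regions differed in the other direction. In the 125 regions less than 2 kb from a member the medians were -9.40 and -9.22 points, and in the 228 at 2 to 5 kb they were -5.60 and -2.89. Around the mirrored set the 196 regions within 2 kb had medians of 4.08 and 6.20 points, the reverse sign again. Beyond 10 kb the medians lay within 1 point of 0 in both sets.

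**Figure D5:**
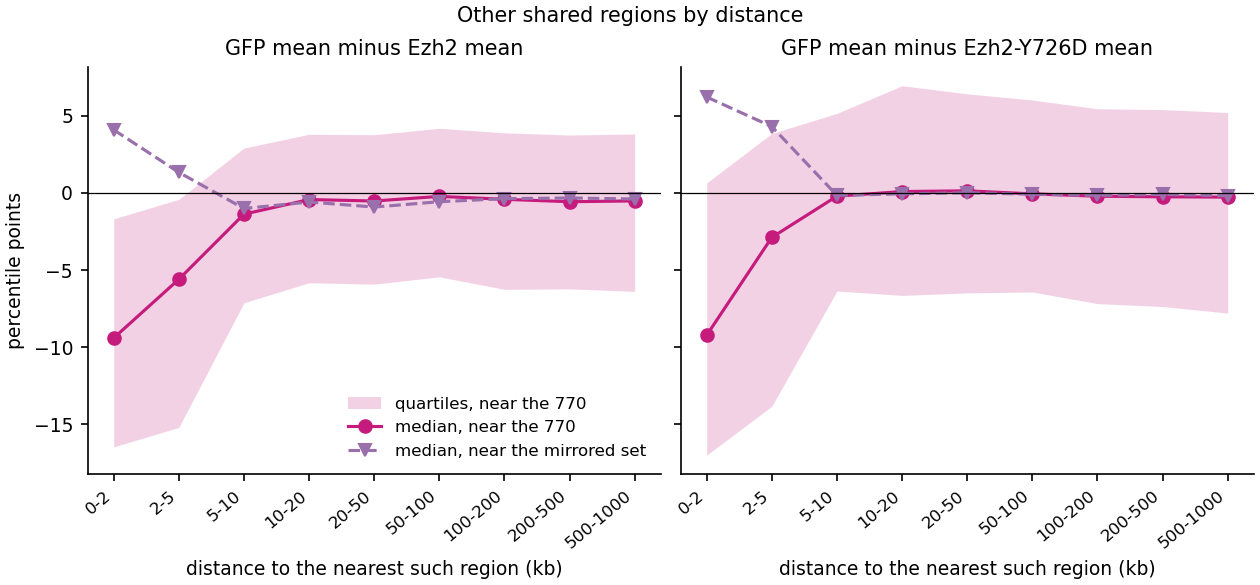
Differences between GFP and each other group (y axis, percentile points) at shared regions that are not themselves in the set, by distance in kb to the nearest region of the set (x axis). Circles are medians and the band the quartiles around the 770 regions, and triangles are medians around the mirrored set. Medians within 2 kb are -9.40 and -9.22 around the 770 regions and 4.08 and 6.20 around the mirrored set.

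At other regions of genes with members the median differences were near 0 or negative, apart from gene ends for Ezh2-Y726D. Members overlapped, or lay at an end of, 609 genes, 492 of them protein-coding, among 23396 genes with a shared region. The 4262 other shared regions of those protein-coding genes had median differences of -1.36 and -0.20 points, and the 503 at their gene ends -0.12 and 1.37 points. Over all protein-coding gene ends that are no members the medians were 0.05 and 0.54.

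Msi2, an RNA-binding regulator of stem and progenitor cells, held the most members, 5 of its 44 shared regions. All 5 were weak peaks, with GFP folds of 2.72 to 5.56. The strongest of them (chr11:88471746-88472597) had folds of 4.70, 5.56 and 5.18 in GFP, 3.48, 3.74 and 4.11 with Ezh2 and 4.26 and 4.66 with Ezh2-Y726D, so the lowest GFP and the highest Ezh2-Y726D fold nearly met. The other 39 regions of Msi2 had a median GFP minus Ezh2 difference of -3.77 points, and 1 of them was in the mirrored set. Hpcal1, a calcium sensor of neurons, held 3 members among 7 shared regions, the phosphodiesterase gene Pde4b 3 among 29, and Dscam, an adhesion molecule that spaces retinal neurites, 3 among 37.

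Rod and cone genes held more members than any other of the 17 lists. Of 57 shared regions in or at the ends of 22 of the 24 listed genes, 6 were members (10.5%), in Cnga1, Pde6b, Rp1, Aipl1 and, with 2, Rdh12. Another 6 were in the mirrored set, 1 of them again in Pde6b, so regions of the listed genes met either rule. Over all shared regions of protein-coding genes the shares were 1.18% members and 2.06% mirrored. The list's medians were -3.89 points for GFP minus Ezh2 and 4.21 points for GFP minus Ezh2-Y726D, against -0.34 and 0.12.

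Cnga1 is described above, and its highest folds within 1 kb of a gene end were 4.05, 4.39 and 3.76 in GFP. Such a peak was absent in all Ezh2 samples and in Ezh2-Y726D replicate 1, and was 3.23 in Ezh2-Y726D replicate 2. At an end of Pde6b, a subunit of the rod phosphodiesterase (chr5:108430965-108431600), folds were 5.44, 5.79 and 4.22 in GFP, 3.45, 3.98 and 3.70 with Ezh2 and 3.38 and 3.73 with Ezh2-Y726D. GFP replicate 3 lay closest to the other groups. The highest folds within 1 kb of any end of Pde6b were 5.46, 5.79 and 5.05 in GFP. They were 5.64, 5.35 and 5.52 with Ezh2 and 3.38 and 3.73 with Ezh2-Y726D, so with Ezh2 another peak there was not weaker. In Rdh12, a retinol dehydrogenase of photoreceptors (chr12:79215784-79216732), folds were 8.30, 8.89 and 9.01 in GFP, 6.35, 6.46 and 4.58 with Ezh2 and 4.72 and 4.85 with Ezh2-Y726D. Rp1, a microtubule protein of the photoreceptor axoneme (chr1:4360161-4360955), and Aipl1 (chr11:72037314-72038342) had low peaks, with GFP means of 4.42 and 3.94 against 2.97 to 3.72 in the other groups. The Aipl1 region lies inside the gene, away from its ends. The highest folds within 1 kb of an end of Aipl1 were 5.92, 5.56 and 6.35 in GFP. They were 5.89, 6.68 and 6.28 with Ezh2 and 5.98 and 5.97 with Ezh2-Y726D. Among genes outside the lists, the promoters of Impg2, of the exchanger gene Slc24a1 and of Lrit3, all linked to photoreceptors or their synapse, also lay in members. Their GFP means were 10.3, 5.89 and 6.74, their Ezh2 means 5.30, 4.17 and 5.12 and their Ezh2-Y726D means 4.84, 4.88 and 5.70. These were picked after their values had been seen.

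Photoreceptor and immune markers varied with the groups as follows. Peaks within 1 kb of a gene end were found for 22 of 24 rod and cone markers in each GFP sample, 19 to 21 in Ezh2 and 18 to 20 in Ezh2-Y726D. Their summed highest folds were 113 to 124, 109 to 120.0 and 88.2 to 106, and Gngt1 and Rp1 had no such peak in any sample. RGC markers had peaks at 17 or 18 of 20 genes in every sample, with summed folds of 100.5 to 111, 105 to 110.4 and 104 to 106, and Rbpms, Pou4f1, Pou4f2 and Thy1 had a peak in all 8 samples. Whether the share of photoreceptors among the sorted cells played a part in the rod and cone members was not tested.

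T cell genes held 2 members of 40 shared regions (5.00%) and 0 of the mirrored set. The list's medians were 7.83 points for GFP minus Ezh2 and -1.29 points for GFP minus Ezh2-Y726D. One member covered the Cd5 promoter (chr19:10738596-10739464), with folds of 5.35, 5.29 and 5.06 in GFP, 4.28, 4.46 and 3.43 with Ezh2 and 5.02 and 3.40 with Ezh2-Y726D. The other, with GFP, Ezh2 and Ezh2-Y726D means of 5.42, 3.65 and 4.31, lay inside Bcl11b, a transcription factor of T cells and neurons (chr12:107980122-107980894). Outside the list, and picked after its values had been seen, the T cell receptor locus Tcra held 2 members among 11 shared regions. At chr14:54180060-54180801 its folds were 6.95, 5.44 and 5.51 in GFP, 4.23, 3.69 and 3.53 with Ezh2 and 3.83 and 3.57 with Ezh2-Y726D. At chr14:54204366-54205337 they were 7.31, 8.06 and 7.35 in GFP, 4.76, 4.40 and 4.73 with Ezh2 and 5.31 and 7.60 with Ezh2-Y726D, so the last sample lay within the range of GFP folds. The 20 T cell markers had peaks at 18 to 20 genes in GFP, at all 20 in Ezh2 and at 9 or 10 in Ezh2-Y726D, with summed folds of 99.5 to 115, 106 to 123 and 52.3 to 57.8. Microglia and macrophage markers had peaks at 13 to 17, 16 or 17, and 5 or 6 of 20 genes, and held no member among 13 shared regions. Microglia sums were 75.5 to 92.9 in GFP, 93.9 to 98.6 in Ezh2 and 50.8 to 52.1 in Ezh2-Y726D. At gene ends, the sums of both immune lists in Ezh2 thus overlapped or exceeded those in GFP, and those in Ezh2-Y726D lay below all GFP values, whereas the T cell list's shared regions had the medians above. The part of immune cells in the members was not tested.

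Axon growth inhibitors and guidance genes held 4 members among 371 shared regions (1.08%), in Slit1, Plxna1, Unc5d and Dcc, and 12 of the mirrored set. Slit1, a repulsive ligand, had its member within 1 kb of a gene end, where the region also overlaps the lncRNA gene Gm19424 (chr19:41745715-41746974), with folds of 5.44, 6.97 and 6.32 in GFP, 4.47, 4.23 and 4.31 with Ezh2 and 5.17 and 4.66 with Ezh2-Y726D. The region in Plxna1, a semaphorin receptor (chr6:89347881-89348975), had means of 4.62, 2.75 and 3.87. Those in the netrin receptors Unc5d (chr8:28829922-28830792) and Dcc had means of 5.47, 4.15 and 4.74 and of 8.18, 5.92 and 6.48. Unc5d also held a region of the mirrored set (chr8:28971483-28972386), with mean folds of 4.20 in GFP, 6.62 with Ezh2 and 8.04 with Ezh2-Y726D.

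PRC2 and PRC1 subunit genes held 2 members among 82 shared regions, both in Phc2, a PRC1 subunit, and none of the mirrored set. In the first (chr4:128721013-128722132) folds were 4.78, 4.74 and 5.03 in GFP, 4.05, 4.04 and 4.06 with Ezh2 and 2.96 and 3.02 with Ezh2-Y726D, a stepwise order with tight replicates. RGC markers and regeneration-associated genes shared their only member, at an end of Gap43, a growth cone protein (chr16:42339268-42339905). Its folds of 3.69, 5.82 and 3.69 in GFP against 3.06 to 3.73 in the other samples put GFP replicate 2 far above all other samples, and the gap rests mainly on it. Gabbr2, a GABA-B receptor subunit (chr4:46700122-46700731), held the only member among 249 regions of transmitter receptors and transporters, which held 11 of the mirrored set. Gabbr2 also held a region of the mirrored set (chr4:46696229-46697078), with mean folds of 3.93 in GFP, 6.02 with Ezh2 and 5.67 with Ezh2-Y726D. Slc1a2, a glutamate transporter (chr2:102723139-102724025), and Erbb4, a neuregulin receptor (chr1:68047074-68047579), held the only members of the astrocyte and bipolar cell lists, among 27 and 85 regions.

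Several lists held no member. These were voltage-gated channels, among 340 shared regions with 10 in the mirrored set, amacrine cell markers (90), Müller glia markers (56), AP-1 and early response genes (41), Hox and developmental transcription factors (37), endothelial markers (33), heat shock genes (24) and, as given above, microglia and macrophage markers (13, with 1 in the mirrored set). Most of these lists have few shared regions, and nothing is read from a count of 0 in them.

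Ezh2 and Ezh2-Y726D were compared directly, since the rule did not use the difference between them. It does bound it, because both had to stay below GFP. The rule used the values of all 3 groups, and the fit took its spread from all 8 samples. The adjusted p-values of members are thus not independent of the choice. In limma with all 8 samples in 1 fit, 49 of the 770 were higher in Ezh2 at a Benjamini-Hochberg adjusted p under 0.05 (6.36%, against 7.09% of all shared regions), and 12 were lower (1.56%, against 7.01%). In percentile points the median difference of Ezh2 minus Ezh2-Y726D was 2.55 over the 770 and 0.13 over all shared regions. The Ezh2 mean was the higher in 461 of the 770. More members were called weaker in Ezh2-Y726D than in Ezh2. In this fit neither share exceeded the one over all shared regions. With peaks ranked by −log10 p the share called higher was 8.95%, against 8.56% of all. With percentiles in place of normal scores it was 6.36%, against 6.16%. Both lay near the share over all regions, so nothing is read from them. Among the 49 the median difference was 32.6 percentile points, and among the 12 it was -28.1 points. With the rule and fit repeated without Ezh2-Y726D replicate 1, the counts were 11 higher (1.16%, against 3.12% of all) and 0 lower (against 2.27%) among 946 members. Without Ezh2-Y726D replicate 2 they were 33 (3.33%, against 3.72%) and 1 (0.101%, against 2.502%) among 992. Without Ezh2 replicate 1 they were 29 (3.27%, against 4.93%) and 5 (0.564%, against 5.20%) among 886, and without Ezh2 replicate 2 they were 31 (3.23%, against 5.08%) and 7 (0.730%, against 5.55%) among 959.

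The smallest adjusted p-values for Ezh2 above Ezh2-Y726D were at intergenic regions near Gm35355 (chr1:124931200-124931922) and Gm35751 and in Ipo4, an importin gene (chr14:55632389-55632877). Near Gm35355 folds were 9.07, 11.0 and 9.92 in GFP, 7.57, 6.23 and 6.76 with Ezh2 and 4.13 and 4.12 with Ezh2-Y726D, so the 3 groups were fully separate. The score difference there was 1.39 ± 0.19 (SE; limma adjusted p = 0.00214). It was 1.28 ± 0.18 near Gm35751 (limma adjusted p = 0.00226) and 1.22 ± 0.18 in Ipo4 (limma adjusted p = 0.00298). Members in Phc2, Hpcal1 and Pde4b, with a score difference of 0.96, 0.93 and 1.16, were called in the same direction (limma adjusted p = 0.00555, 0.00948 and 0.00693).

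In the other direction the leading regions were in Galnt7, a mucin-type glycosylation enzyme (chr8:57538337-57538935), in Gm47052 (chr13:98976008-98976946) and 931 bp from Gm46925 (chr5:134347083-134347570). In Galnt7 folds were 7.68, 6.85 and 8.23 in GFP, 3.32, 3.62 and 3.13 with Ezh2 and 5.39 and 5.14 with Ezh2-Y726D, with the catalytically dead form between the others. The score differences were -1.08 ± 0.20, -1.05 ± 0.21 and -1.09 ± 0.27 (SE; limma adjusted p = 0.00793, 0.0102 and 0.0259). For the remaining 709 members no difference between the forms was called, which does not show that they acted alike. With the 2 Ezh2-Y726D samples a median of 11.2 points apart in these regions, small differences were not detectable.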

How the data were processed

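ATAC-seq peak lists of 8 samples (3 GFP, 3 Ezh2, 2 Ezh2-Y726D) were analysed. Per the labels, the authors trimmed reads with cutadapt, aligned them to GRCm38 with Bowtie2, processed them with SAMtools and Picard and called peaks per sample with MACS2. Settings and the peak threshold are not given in the sources used here. Each deposited list gives a fold ratio over background, a −log10 p-value, a −log10 q-value and the summit offset. Lists held 112939 to 135895 peaks. Total reads were not used here.

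The fold was ranked within each list as a percentile among all its peaks, with ties averaged, because folds of different libraries are not on 1 scale. Such ranks show relative, not absolute, change. Normal scores of the ranks were tested with limma 3.58.1 (R 4.3.3) over all 68278 shared regions, with all 8 samples in 1 fit and Benjamini-Hochberg adjustment at 0.05. The code of the rule and of the fit was checked on simulated data with known answers. Simulated replicates for the rule varied less than these samples, so that check does not show how the rule behaves here. Genes came from a RefSeq table of GRCm38.p6 without strand, so "gene end" covers both ends within 1 kb. Promoter windows hold 250 bases before the start site, and the 50 bases after it were left out.

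Named regions were the 10 with the largest smaller difference from GFP, 6 at ends and 4 in bodies of protein-coding genes, those of 17 gene lists, those on promoters, those in the genes with most members, 3 on either side of the threshold and 3 in each direction of the test. Members and lists were chosen with earlier results of these data known. Alternatives changed the ranked measure, threshold, list length, peak filter, overlap, scale, replicate block and samples.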

Additional observations from a re-analysis of the deposited data

How the results depend on the processing

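The number of regions that met the rule was within 1.5 times of 770 in 12 of 15 alternatives. It was 445 with a difference of at least 20 points, 1264 with 10 points and 255 when each list's peaks were required to span 0.5 or more of it. Leaving out single samples gave 886 to 1126. The share at gene ends was 22.3% with 3 kb in place of 1 kb, and 11.4 to 13.9% when single samples were left out. Counts of regions higher in Ezh2 than Ezh2-Y726D (49) and lower (12) were less stable. They were 77 and 7 when ranked by −log10 p, 17 and 4 at 20 points, 88 and 25 at 10 points and 3 and 3 with the coverage requirement. The higher count was 30 with −log10 q of at least 5. With only the Ezh2 and Ezh2-Y726D samples the counts were 35 (4.55%, against 6.26% of all) and 5 (0.649%, against 6.25%). Without single samples the counts were 11 to 58 and 0 to 14. Where 1 Ezh2-Y726D sample remained, it was assumed to vary like the others. With percentiles in place of normal scores they stayed at 49 and 12, while over all regions the split moved from 4839 higher and 4784 lower to 4206 and 2938. In both of these settings, ranking by −log10 p and percentiles, the share called higher among the members lay near that over all regions. The causes were not tested.

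Deviations of same-numbered samples correlated at -0.0152 to 0.0490 by the replicate number and at 0.00269 to 0.0490 by the number in the peak names. With groups of 2 or 3 samples, such small correlations cannot settle whether samples were prepared in pairs. With the replicate number as a block the counts were 37 and 4. With the numbers in the peak names as a block, an alternative added after seeing the data, they were 30 and 6. Library depth was not known, and 1 step of fold was worth 2.11 to 5.68 percentile points in these regions, which limits single-sample values.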

Other observations

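Chromosome X was outside the rule. Of its 1188 shared regions, 39 had every GFP value above all others, 14 (1.18%) met the same rule and 18 met the reverse rule.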
